A study of Drosophila melanogaster with 6 samples.

Results

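The small heat shock protein genes of Drosophila melanogaster were examined in wing disc myoblasts of WT animals and of animals with reduced M1BP. The 8 genes are Hsp22, Hsp23, Hsp26, Hsp27, Hsp67Ba, Hsp67Bb, Hsp67Bc and l(2)efl, chosen by name out of 17494 genes in the count table, and all 8 had enough reads to enter the test of 10306 genes. Both groups carried the muscle driver Mef2-GAL4, which is active in the myoblasts, together with UAS-GFP::Gma, a fluorescent reporter of actin. The WT group had no RNAi transgene and the M1BP RNAi group expressed UAS-M1BP RNAi #1, the weaker of the pair of RNAi lines of the study, so this group is a knockdown by 1 line and not a loss of the gene. Animals were raised at 25 °C and taken at 0 h after puparium formation (APF), and GFP-positive cells were sorted from 30 to 35 wing discs per preparation, with 3 libraries in each group. The comparison addresses whether the myoblasts, which build the adult flight muscles, change these genes when M1BP, a promoter-binding transcription factor, is reduced. The discs of both groups were dissociated at 30 °C for 45 min before the sort, a warm step that belongs beside any level of a heat-inducible gene. Its part in the levels below was not tested.

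Small heat shock proteins share a domain named after alpha-crystallin, a protein of the vertebrate eye lens. They form large oligomers that hold unfolding proteins in a soluble state, without using ATP, until chaperones of the Hsp70 class refold them or hand them on for degradation. In Drosophila most of their genes lie side by side at cytological position 67B, where the heat shock factor Hsf switches them on after heat, and several are also switched on without stress by the moulting hormone ecdysone at the end of larval life. Hsp22 is found in the mitochondrial matrix, Hsp23 and Hsp26 in the cytosol and Hsp27 mainly in the nucleus. Hsp67Bc works with the co-chaperone Starvin (stv) in autophagy of misfolded proteins, and l(2)efl is known from muscle as a counterpart of vertebrate alphaB-crystallin. Hsp67Bb carries the family name from its position and heat response, but encodes a rhodanese-type protein with no alpha-crystallin domain.

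Library totals lay between 43086545 and 51855156 counts, with scaling factors between 0.988 and 1.01. M1BP itself had normalised counts of 5311, 5680 and 5216 in WT against 1387, 1841 and 1710 in M1BP RNAi, a log2 fold change of -1.71 (edgeR adjusted p 1.45e-05, SE 0.10), in the direction of the labels. A normalised count is a count divided by its library's effective size and multiplied by the mean effective size. The 8 myoblast markers, among them twi, Him and zfh1, each exceeded 100 CPM (counts scaled to library size) and 0 of the 8 were called at an adjusted p of 0.05 in edgeR or DESeq2, with 0 at an unadjusted p under 0.05. Their summed level was 10630 to 12053 CPM in WT and 10605 to 11348 CPM in M1BP RNAi. The study describes its replicates in general as independent biological ones and these libraries as triplicate RNA preparations, while the labels name no separate culture or cross, so p-values measure the spread between these preparations.

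With edgeR's quasi-likelihood test and an adjusted p of 0.05, 1 of the 8 genes was called. This gene was Hsp67Ba, which was 1.41-fold higher in M1BP RNAi. Over all tested genes 4.09% were called at that level, and 1.92% were called and higher. At the threshold of the study, an adjusted p of 0.001 with a change of at least 1.5-fold, 0 of the 8 were called, against 0.475% of all tested genes. At an unadjusted p under 0.05 there was 1 of 8, again Hsp67Ba, where 20.2% of all genes lay. The DESeq2 Wald test likewise called Hsp67Ba and no other member, with 8.41% of all genes called. Their median log2 fold change was -0.18, and -0.17 when Hsp22 and Hsp67Bb, which share their reads, entered once. The median over all tested genes was 0.0070.

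The level of the genes per exon length, in RPKM, which divides a count by the exon length and the library size, reached from the highest ranks of the myoblast transcripts down to traces. Hsp23 had a mean of 2297 RPKM in WT and 2309 in M1BP RNAi, ranks 10 and 9 of the 10306 tested genes. Hsp26 followed with 2260 and 2008 RPKM, ranks 11 and 12, and Hsp27 with 1759 and 1640 RPKM, ranks 13 and 16. Hence 3 genes of 1 cluster stood among the 16 highest per length in either group. Within a library, Hsp23 and Hsp26 each stood above Hsp27 in 6 of 6 libraries, although the range of each overlapped that of Hsp27 across libraries. The order of Hsp23 and Hsp26 was not the same throughout, with Hsp26 slightly above in WT replicates 1 and 2 and Hsp23 above in the other 4 libraries.

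Below these, the ranges of genes next to each other in the order did not overlap across the libraries. Hsp22 had 318 RPKM in WT and 278 in M1BP RNAi, if all reads shared with Hsp67Bb are given to it. Hsp67Ba had 123 and 173 RPKM, and Hsp67Bc had 57.6 and 42.4 RPKM. The lowest gene, l(2)efl, stood at 0.89 and 0.44 RPKM, ranks 8354 and 9008. The members without Hsp67Bb took between 0.622% and 0.905% of all counts in a library, and the whole range was spanned by the WT libraries alone.

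**Figure D1:**
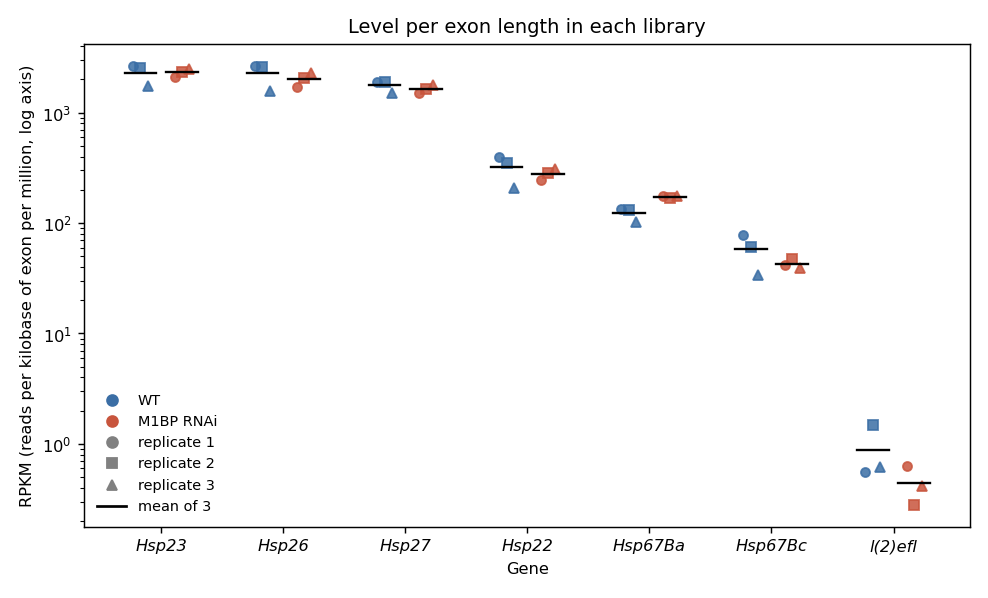
Level of 7 genes per exon length (vertical, log axis, RPKM) in each of 3 WT (blue) and 3 M1BP RNAi (red) libraries, with the mean of 3 as a bar. Hsp23, Hsp26 and Hsp27 are the highest, with means of 1640 to 2309, l(2)efl is the lowest, and in Hsp67Ba all M1BP RNAi points lie above all WT points.

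The cytosolic pair Hsp23 and Hsp26 showed no shift beyond replicate error. Hsp23 (FBgn0001224, 3L, 9381882 to 9382765, plus strand, dm6, a gene of 1 exon coding for 186 amino acids) had 109116, 103964 and 71772 normalised counts in WT against 86540, 96268 and 103573 in M1BP RNAi. WT replicates 1 and 2 were the highest and WT replicate 3 the lowest of the 6 libraries, so the M1BP RNAi values lay inside the WT range. The means were 94951 ± 20238 and 95460 ± 8545 (SD, n = 3). The log2 fold change came to 0.0077 (95% interval -0.30 to 0.31, SE 0.14, edgeR adjusted p 0.982).

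Hsp26 (FBgn0001225, 3L, 9376418 to 9377427, minus strand, 1 exon, 208 amino acids) had 124916, 121239 and 74046 normalised counts in WT. The M1BP RNAi libraries had 79844, 96132 and 108552. The pattern was that of Hsp23, with the M1BP RNAi libraries lying between the lowest and the highest WT library. The log2 fold change was -0.17 (95% interval -0.57 to 0.23, SE 0.18, edgeR adjusted p 0.633), from 106734 ± 28368 to 94842 ± 14397 (SD, n = 3).

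Hsp27, the member found mainly in the nucleus, varied less between libraries than Hsp22, Hsp23 and Hsp26 did. Hsp27 (FBgn0001226, 3L, 9384063 to 9385694, plus strand, 1 exon, 213 amino acids) had 144520, 143357 and 114940 normalised counts in WT. In M1BP RNAi it had 114853, 126068 and 134509, and WT replicate 3 differed from M1BP RNAi replicate 1 by less than 100 counts. Its log2 fold change was -0.10 (edgeR adjusted p 0.576, SE 0.093). The 95% interval of -0.31 to 0.11 was the narrowest of those genes that were not called. Its last 49 exonic bases overlap those of CR43483 on the opposite strand, which had at most 24 counts in a library.

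Hsp22, the mitochondrial member, and Hsp67Bb cannot be separated in these counts. Hsp22 (FBgn0001223) is listed at 3L, 9372931 to 9374964, and Hsp67Bb (FBgn0001228) at 9372722 to 9374964, on the same plus strand and with the same end. All 1900 exonic bases of Hsp22 lie within exons of Hsp67Bb, and only 209 exonic bases of Hsp67Bb lie outside Hsp22. The coding parts do not overlap. That of Hsp67Bb, for 111 amino acids, runs from 9372975 to 9373441, and that of Hsp22, for 174 amino acids, runs from 9374251 to 9374772. Both fall in the stretch shared by the gene models, so a read from either coding part is listed under both names. In the WT libraries Hsp22 was listed with 38702, 29028 and 19670 counts and Hsp67Bb with 9, 3 and 3 more, and in the M1BP RNAi libraries Hsp22 had 21603, 23166 and 26791 counts and Hsp67Bb 6, 5 and 2 more. The few reads in excess are what the 209 bases of Hsp67Bb add, and the values below therefore describe the sum of both genes.

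This sum was 35311, 31180 and 18356 normalised counts in WT. The M1BP RNAi libraries, at 21620, 25046 and 27414, again lay inside the WT range. The log2 fold change was -0.20 with an interval of -0.64 to 0.24, which on the linear scale is 0.64-fold to 1.18-fold, so a change of that size was within the error of 3 libraries against 3. Within WT alone the highest library exceeded the lowest 1.92-fold, against 1.27-fold within M1BP RNAi.

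Hsp67Bc, the partner of Starvin, had the lowest fold change in the cluster. Hsp67Bc (FBgn0001229, 3L, 9371511 to 9372497, minus strand, 1 exon, 199 amino acids) had 3604, 2808 and 1571 normalised counts in WT against 1915, 2163 and 1793 in M1BP RNAi. WT replicates 1 and 2 stood above all M1BP RNAi libraries and WT replicate 3 below them, so the groups overlapped. The log2 fold change was -0.44 (95% interval -0.97 to 0.08, SE 0.23, edgeR adjusted p 0.326). The side of the threshold rested on WT replicate 3, since without it the log2 fold change was -0.72 with an adjusted p of 0.0179 (edgeR), the only alternative in which the gene passed.

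The muscle gene l(2)efl (FBgn0011296, 2R, 23684651 to 23685543, minus strand, 187 amino acids) was close to the limit of detection. It had 21, 48 and 23 counts in WT against 22, 9 and 14 in M1BP RNAi, above the floor of 3 counts. WT replicate 2 was the highest library and the others of both groups were mixed. The log2 fold change of -0.98 (95% interval -2.16 to 0.20, SE 0.53, edgeR adjusted p 0.333) became -0.40 without WT replicate 2. With counts this low a change was not detectable at this depth. Of its exonic bases 75 overlap those of St3 on the opposite strand.

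Hsp67Ba was the exception among the members. Hsp67Ba (FBgn0001227, 3L, 9377802 to 9379534, minus strand, 1 exon) encodes the longest protein of the group, with 445 amino acids against 111 to 213 in the others, and is among the less studied of them. It had 10789, 10726 and 8337 normalised counts in WT against 14090, 13636 and 14339 in M1BP RNAi. All M1BP RNAi libraries lay above all WT libraries, which was true of no other member, and groups did not overlap in 26.1% of all tested genes. The means were 9951 ± 1398 and 14022 ± 357 (SD, n = 3). The log2 fold change was 0.49 (95% interval 0.29 to 0.70, SE 0.093, edgeR adjusted p 0.0184), or 1.41-fold with an interval of 1.22 to 1.63. DESeq2 gave an adjusted p of 2.03e-05.

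The call of Hsp67Ba was lost without any 1 of the M1BP RNAi libraries, while the direction was the same in the 12 alternatives run. With M1BP RNAi replicate 1, 2 or 3 left out, edgeR gave an adjusted p of 0.0641, 0.0746 or 0.0676, above the threshold, with log2 fold changes of 0.49, 0.51 and 0.48. Without WT replicate 3, the low library, the log2 fold change was 0.38 (adjusted p 0.00898, edgeR). Over all tested genes 290, 177 and 228 were called without M1BP RNAi replicate 1, 2 and 3, against 422 with all 6 libraries. Without WT replicate 1, 2 and 3 it was 186, 764 and 241 genes, and Hsp67Ba kept its call each time.

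The reads of Hsp67Ba are shared with an antisense gene. Of its 1733 exonic bases, 1316 overlap asRNA:CR43481 (FBgn0263492, 3L, 9378160 to 9381119, plus strand), a noncoding RNA of 2901 exonic bases on the opposite strand. asRNA:CR43481 had 10455, 10301 and 7948 normalised counts in WT against 13153, 12857 and 13481 in M1BP RNAi, close to Hsp67Ba in each library, and was called as well (log2 fold change 0.46, edgeR adjusted p 0.0285, SE 0.096). Like that of Hsp67Ba, its call was lost without any 1 of the M1BP RNAi replicates, and also without WT replicate 1, with adjusted p values of 0.0515 to 0.110 (edgeR). The library kit does not mark strand and the sources do not say whether counting used it. Reads of Hsp67Ba and of its antisense partner can therefore not be told apart, and the values of either gene describe the pair. Nothing of the kind applies to Hsp23, Hsp26 or Hsp67Bc, whose exons overlap no other listed gene.

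In bulk RNA of sorted cells, fewer cells of a type and less RNA per cell cannot be told apart. Among the markers of differentiated muscle, Act57B was higher in M1BP RNAi, as Hsp67Ba was, and it made up nearly all of their sum. The summed level was 337 to 399 CPM in WT and 449 to 502 CPM in M1BP RNAi. Of the 6 listed genes 4 were tested, and all 4 had estimates above 0. Only Act57B was called (log2 fold change 0.39, adjusted p 0.0203, edgeR). At an unadjusted p under 0.05 there were 3, all higher, with Act88F at 0.85 and up, at no more than 36 counts in a library, at 1.46 (edgeR). Over all tested genes 20.2% lay under that unadjusted p and 4.09% were called. The call of Act57B was lost without any 1 library other than WT replicate 2, with adjusted p values of 0.0603 to 0.113 (edgeR). The summed levels were 897 to 1086 and 837 to 919 CPM for 6 markers of wing disc epithelium, mostly shg, 8032 to 9283 and 8453 to 8646 CPM for 6 markers of haemocytes, mostly Ppn, 21.1 to 45.5 and 15.9 to 24.8 CPM for 4 of trachea, 30.9 to 33.2 and 27.9 to 32.5 CPM for 4 of neurons, and at most 1.47 CPM for 5 of fat body. Of these other lists 0 genes were called in edgeR, with 5 at an unadjusted p under 0.05, while DESeq2 called srp, Pxn and serp, all lower. The shares over all genes were 20.2% at that unadjusted p in edgeR and 8.41% called by DESeq2. No listed marker was at 0 in all 6 libraries. The part of these cells in the result of Hsp67Ba was not tested.

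**Figure D2:**
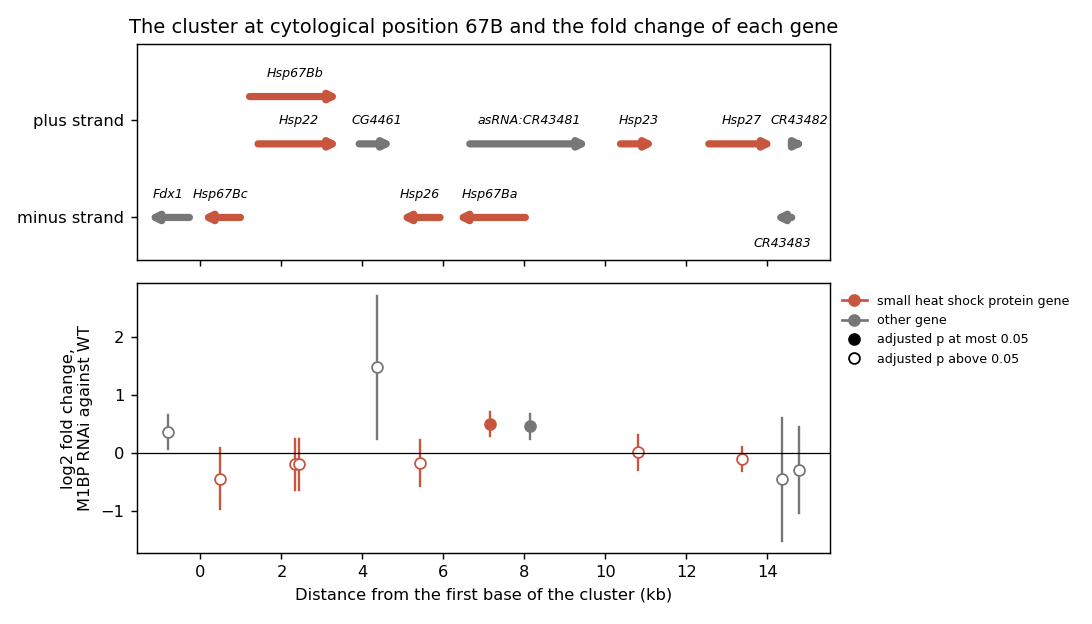
The 67B cluster to scale, with genes as arrows on either strand (top) and the log2 fold change of each gene in M1BP RNAi against WT with its 95% interval (bottom), both against the distance from the first base of the cluster in kb. Hsp67Ba (0.49) and the antisense gene that overlaps it (0.46) are the filled points, and the other members have intervals that span 0. The open points of CG4461 (0.25 to 2.71) and Fdx1 (0.063 to 0.65) have intervals above 0.

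The 7 members at 67B lie within 14184 bases of 3L, between 9371511 and 9385694, and their neighbours were read in the same way. Within 10000 bases of either end the count table lists 18 genes. Of the 11 that are not members, all were tested and 2 were called, asRNA:CR43481 and Pdxk, where 4.09% of all tested genes were called. The reads of asRNA:CR43481 cannot be told apart from those of Hsp67Ba, so Pdxk was the only call separate from it. Pdxk, which lies to the left of the cluster, was lower in M1BP RNAi by -0.35 on the log2 scale (adjusted p 0.0459, edgeR), with 2032, 2320 and 2452 normalised counts in WT against 1859, 1749 and 1733 in M1BP RNAi. Its call was lost without any 1 library other than WT replicate 1, with adjusted p values of 0.0580 to 0.171 (edgeR). Fdx1, the nearest gene on the left, encodes a ferredoxin and stood at 0.36 (adjusted p 0.169, edgeR), and 106 of its exonic bases overlap CG4452 on the opposite strand. The called genes thus lay at 2 places, with uncalled members on both sides of Hsp67Ba.

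Among the 4 other genes with an alpha-crystallin domain that were listed, 2 were tested and 0 were called by edgeR or DESeq2. At an unadjusted p under 0.05 (edgeR) there was 1, against 20.2% of all tested genes. CG4461 lies inside the cluster, between Hsp22 and Hsp26, yet it was nearly silent, with 32, 13 and 12 counts in WT against 46, 77 and 23 in M1BP RNAi. Its log2 fold change of 1.48 (edgeR adjusted p 0.174, SE 0.55) did not pass and the groups overlapped. CG14207, outside the cluster on X, had 7663 ± 329 normalised counts in WT, against 7828 ± 106 with M1BP RNAi (SD, n = 3) and a log2 fold change of 0.031 (edgeR adjusted p 0.801, SE 0.056), the most even of the alpha-crystallin genes between libraries. CG7409 had 20 counts in M1BP RNAi replicate 1 and 0 elsewhere, and CG13133 had 0 in every library, which allows up to 3 counts or between 0.0579 and 0.0696 CPM.

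Hsp22, Hsp23, Hsp26 and Hsp27 were high and low in the same libraries. Relative to the WT mean on the log2 scale, the median of the members, with Hsp67Bb left out, was 0.22, 0.16 and -0.38 in WT replicates 1, 2 and 3. In M1BP RNAi replicates 1, 2 and 3 it was -0.31, -0.11 and 0.010. The distance between WT replicates 1 and 3 thus exceeded that between any WT and any M1BP RNAi library.

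**Figure D3:**
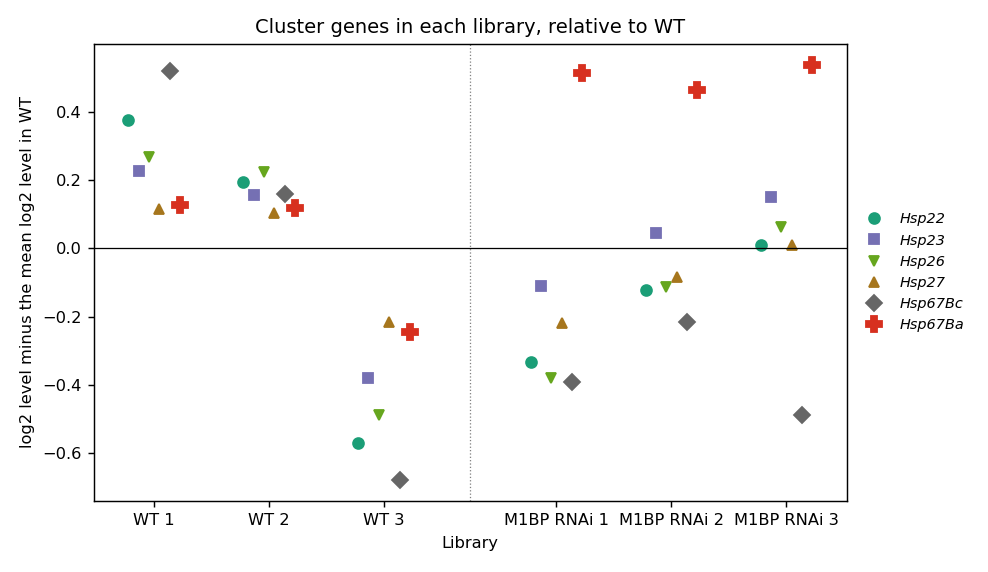
Level of 6 cluster genes in each library (horizontal), as the log2 level minus the mean log2 level of the gene in WT (vertical). In WT replicate 3 all 6 genes lie below 0, down to -0.68 for Hsp67Bc, and in the M1BP RNAi libraries Hsp67Ba stands apart at 0.46 to 0.54.

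In WT the spread was larger than the median over all tested genes, as it also was in several heat shock genes outside the cluster. The median coefficient of variation of the members was 26.6% over the WT libraries and 9.65% over the M1BP RNAi libraries. Over all tested genes it was 9.55% and 7.41%, and over the 2279 genes of at least 100 CPM it was 5.83% and 3.80%. Outside the cluster the value in WT was 30.4% for Hsp68, 33.1% for lncRNA:Hsromega, 32.7% for stv and 24.2% for DnaJ-1. It was 17.9% to 25.0% for the Hsp70 genes, 14.5% for Hsf and 6.94% for Hsp83. The biological coefficient of variation of the fit was 15.6% for the members, 9.38% for all tested genes and 6.16% for those of at least 100 CPM. No test was made of this difference, and no label tells WT replicate 3 from the others.

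Over the 6 libraries Pearson's r between Hsp22, Hsp23, Hsp26, Hsp27 and Hsp67Bc lay between 0.75 and 0.99 in 10 pairs. After the mean of each genotype was subtracted it lay between 0.78 and 1.00. Hsp67Ba had r between -0.052 and 0.47 with these 5 genes, and between 0.86 and 0.93 after the genotype means were subtracted. The values with the genotype means subtracted pool both genotypes, and most of their spread comes from WT, where all 6 genes were lowest in replicate 3. Among the M1BP RNAi libraries Hsp67Ba was lowest in replicate 2, whereas Hsp22, Hsp23, Hsp26 and Hsp27 were lowest in replicate 1 and Hsp67Bc was highest in replicate 2. All of these values describe 6 points that share library and depth. Per exon length, Hsp67Ba stood at 5.03%, 5.16% and 6.56% of Hsp26 in WT and at 10.3%, 8.27% and 7.70% in M1BP RNAi. All M1BP RNAi values lay above all WT values. The exact two-sided permutation test gave p = 0.1, the smallest that 3 against 3 allows, so it cannot reach 0.05. Hsp67Ba was singled out by its values in these same libraries, so the ratio describes that difference again and is no separate test.

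The genes most like the mean profile of Hsp22, Hsp23, Hsp26 and Hsp27 were searched among 6423 genes of at least 10 CPM. Over the 6 libraries the highest r belonged to Hsp68, a stress-inducible chaperone of the Hsp70 class encoded on 3R, with 0.987. Taldo (transaldolase, 0.985), Abp1 (an actin-binding protein, 0.982), eIF4A (a translation initiation factor, 0.980) and CG42394 (0.974) followed. After the genotype means were subtracted, the closest were Ggamma1 and boca with 0.997 each, CG14985 and eIF3l with 0.996 each, and Hsp68 with 0.995. An r of at least 0.95 was reached by 14 genes in the first search and by 111 in the second, so likeness within the genotypes set the members apart little. The shared profile had very different sizes. Hsp68 ranged from 37097 to 68967 normalised counts over the libraries, whereas eIF4A ranged from 107545 to 122353.

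Hsp68, first in likeness, was also read gene by gene with the heat-inducible genes outside the cluster. It had 68967, 64790 and 37097 normalised counts in WT against 43825, 53855 and 64246 in M1BP RNAi. As in Hsp26, WT replicate 3 was lowest and WT replicates 1 and 2 were highest. It stood at a log2 fold change of -0.077 (edgeR adjusted p 0.872, SE 0.21), and its sign turned when WT replicate 1, WT replicate 2 or M1BP RNAi replicate 1 was left out, to 0.081, 0.019 and 0.046.

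Of the 12 stress-inducible heat shock genes with their regulator Hsf, 12 were tested and 0 were called by edgeR or DESeq2. At an unadjusted p under 0.05 there were 2, both lower in M1BP RNAi, against 20.2% of all tested genes. The median log2 fold change of the 12 was -0.019. Hsp83, the Hsp90 chaperone and the most abundant of them with 1.71% to 2.04% of all counts, had 967447, 861946 and 857799 normalised counts in WT against 794053, 813959 and 833610 in M1BP RNAi. The groups did not overlap, as in 26.1% of all tested genes, and the log2 fold change was -0.14 (edgeR adjusted p 0.200, SE 0.055).

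lncRNA:Hsromega, the noncoding RNA that gathers RNA-binding proteins in the nucleus after heat, had 130571, 69175 and 86977 normalised counts in WT against 69136, 52498 and 66854 in M1BP RNAi. The M1BP RNAi values were all below the WT values, by a small margin between the nearest libraries. Groups did not overlap in 26.1% of all tested genes. Its log2 fold change was -0.61 (edgeR adjusted p 0.127, SE 0.20). It passed without WT replicate 2 (-0.80, adjusted p 0.0254, edgeR), and was -0.31 (adjusted p 0.317, edgeR) without WT replicate 1.

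The 6 Hsp70 genes lay between -0.24 (Hsp70Bc, adjusted p 0.474) and 0.25 (Hsp70Aa, adjusted p 0.424, edgeR) with signs in both directions. They are near-identical copies, so their separate values and their order are uncertain. Hsp70Bb, the highest of them as counted, had 10663 ± 1914 normalised counts in WT, against 12458 ± 1281 with M1BP RNAi (SD, n = 3). Reads of these genes, which are classed as stress-induced, were thus present in every library of both groups. DnaJ-1, the Hsp40 partner of Hsp70, stood at 0.071 (adjusted p 0.822) and Hsf at -0.12 (adjusted p 0.522, edgeR).

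**Figure D4:**
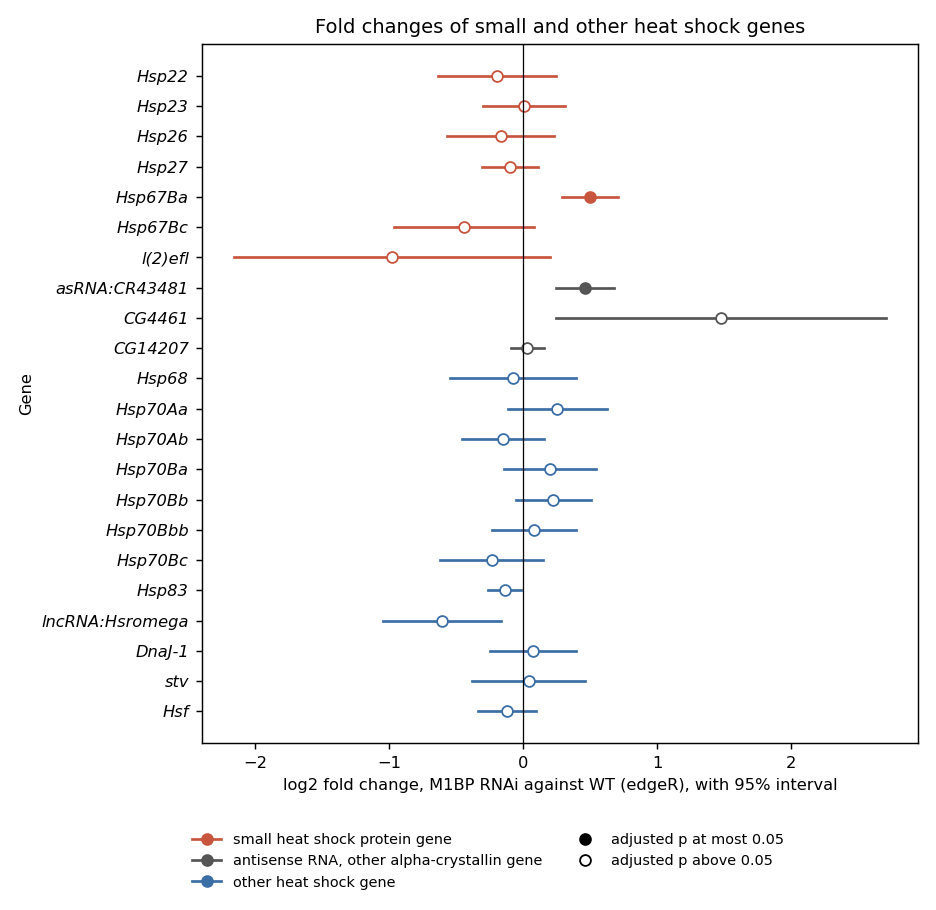
Log2 fold change of M1BP RNAi against WT (horizontal, edgeR) with its 95% interval for 7 small heat shock genes (red), the antisense RNA and other alpha-crystallin genes (grey) and 12 other heat shock genes (blue), filled where the adjusted p was at most 0.05. Only Hsp67Ba and asRNA:CR43481 are filled, and l(2)efl and CG4461, with few reads, have the widest intervals.

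Genes of the ecdysone response, the other known inducer of the cluster, were examined because the animals were at the onset of metamorphosis. Of 19 listed genes 18 were tested, and 0 were called by edgeR or DESeq2. At an unadjusted p under 0.05 there were 5, of which 3 were higher and 2 lower, against 20.2% of all tested genes. The median log2 fold change was 0.065. The receptor subunits EcR and usp stood at -0.023 (adjusted p 0.900) and 0.071 (adjusted p 0.565, edgeR). Hr3, a nuclear receptor of the ecdysone cascade, had the smallest adjusted p of the list, 0.122, with a log2 fold change of 0.19. Its exons share bases with 3 other listed genes on the same strand, and those of usp and ftz-f1 also overlap other genes. ftz-f1, which acts after Hr3 in the cascade, stood at -0.26 (edgeR adjusted p 0.235, SE 0.11).

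**Figure D5:**
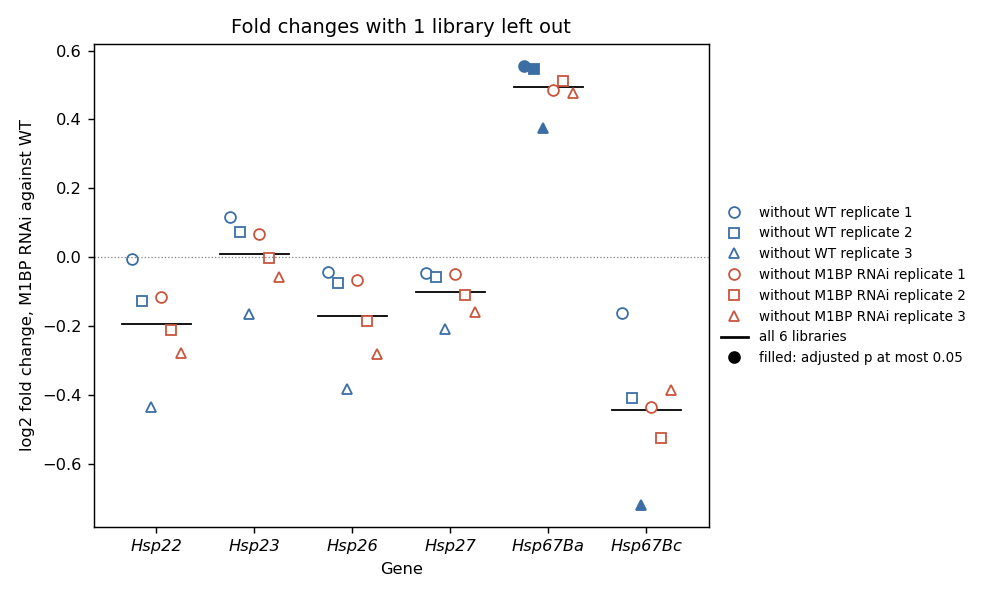
Log2 fold change of M1BP RNAi against WT (vertical) of 6 cluster genes with all 6 libraries (bar) and with each library left out in turn (symbols), filled where the adjusted p in edgeR was at most 0.05. Leaving out WT replicate 3 gives the lowest value of each gene, and the values of Hsp67Ba stay between 0.38 and 0.56.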

How the data were processed

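The authors sequenced cDNA amplified from 2 ng of total RNA (SMART-Seq v4, 10 PCR cycles, then Nextera XT and 12 cycles) on a HiSeq 4000, and counted reads per gene. The labels give about 25000 cells per sample in one field and about 50000 in another. The deposited file holds raw whole-number counts per gene on dm6, with bcl2fastq 2.17.1.14, Subread 2.0.3 and featureCounts named in the submitters' processing notes. The aligner settings and the use of strand are not given in the sources used here. The counted alignments carried the word unique in their names, and the names alone do not say how reads matching several copies were treated. PCR copies were not marked by molecular identifiers, so counts overstate independent molecules. Reads on 2 overlapping genes appear under both, since Hsp22, whose exons all lie within those of Hsp67Bb, has counts. A second deposited table holds the authors' own fold changes and p-values, which were not used, other than its gene symbols. Of 17494 gene IDs, 17358 took a symbol from the gene-name table, 83 from the deposited table, and 53 had none.

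Counts were fitted with edgeR 4.0.16 (R 4.3.3; TMM, filterByExpr, glmQLFit, glmQLFTest, genotype only) over all 6 libraries, with Benjamini-Hochberg adjustment over 10306 genes. DESeq2 1.42.0 was an alternative, as were other scaling factors, no filter, a replicate block and leaving out each library. RPKM was computed from the counts, the listed exon lengths and TMM sizes. Named genes were all members, the genes within 10000 bases of the cluster that were called or adjoin it, the 5 genes most like the members in each of 2 searches, and, from each list, examples and all called genes. Members and lists were chosen with earlier results of these data known. The fit was tested on simulated data. Gene models were read from the BDGP6.54 annotation, whose spans of the members equal those of the count table.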

Additional observations from a re-analysis of the deposited data

How the results depend on the processing

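The median log2 fold change of the members, with Hsp22 and Hsp67Bb entered once, kept its sign in the 12 alternatives (-0.38 to -0.044), and 0 members were called at the threshold of the study in any of them. The number of members called at an adjusted p of 0.05 was 1 and lay between 0 and 2 when 1 library was left out. It was 0 without any 1 of the M1BP RNAi replicates and 2, Hsp67Ba and Hsp67Bc, without WT replicate 3. The number of all genes called at that level was 422 in the fit reported, 869 with DESeq2 and between 177 and 764 with 1 library left out. At the threshold of the study it was 49, 99 without the filter on low counts, 174 with DESeq2, 19 with the replicate block and 17 to 31 with 1 library left out. Over the alternatives the adjusted p of Hsp67Ba lay between 2.03e-05 and 0.0746 and its log2 fold change between 0.38 and 0.56. The sign turned for Hsp23 (-0.00024 with DESeq2's size factors, -0.00014 with DESeq2, and between -0.17 and 0.12 with 1 library left out), for Hsp68 (-0.32 to 0.081 with 1 library left out), for CG14207 (-0.012 to 0.050), and likewise with 1 library left out for DnaJ-1 (-0.11 to 0.24), stv (-0.17 to 0.31), EcR (-0.097 to 0.032), Hsc70-4 (-0.024 to 0.066), Hsp60A (-0.048 to 0.013) and ref(2)P (-0.10 to 0.033). The causes were not tested. No label says whether the replicate numbers pair the samples. The deviations of same-numbered libraries had r of 0.031, -0.046 and -0.16 for replicates 1, 2 and 3. The highest r with a library of another number was 0.025, 0.12 and 0.11. Such correlations cannot decide whether preparations were handled in pairs. With the replicate block 369 genes were called at an adjusted p of 0.05, Hsp67Ba had an adjusted p of 0.0267 and lncRNA:Hsromega one of 0.0331, Pdxk lost its call (adjusted p 0.0786), and no call among the members changed. Removing Hsp67Bb from the table, or taking library sizes without the members, both chosen after the data were seen, left 1 member called. Depth limits l(2)efl, CG4461 and CG7409, and overlapping gene models limit Hsp22, Hsp67Bb and Hsp67Ba.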

Other observations

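Chaperones that work beside the members in other compartments were read from 2 further lists. Of 6 chaperones of the mitochondria, the compartment of Hsp22, 6 were tested and 1 was called, against 4.09% of all tested genes. At an unadjusted p under 0.05 there were 3, with 2 higher and 1 lower, against 20.2% of all genes (edgeR). The called gene, CG5504, a DnaJ protein also known as l(2)tid, was higher in M1BP RNAi (log2 fold change 0.58, edgeR adjusted p 0.000512, SE 0.057). Hsc70-5, the Hsp70 of the matrix, stood at -0.20 (adjusted p 0.206, edgeR). Roe1, its nucleotide exchange factor, stood at 0.19 (adjusted p 0.178) and Hsp60A at -0.017 (adjusted p 0.893, edgeR).

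Of 4 partners of chaperone-assisted selective autophagy, in which Hsp67Bc takes part, 4 were tested and 0 were called by edgeR or DESeq2, with 0 at an unadjusted p under 0.05. stv, the co-chaperone that binds Hsp67Bc, had 3061, 2192 and 1577 normalised counts in WT against 2450, 2319 and 2253 in M1BP RNAi. As in Hsp67Bc, WT replicate 1 was the highest and WT replicate 3 the lowest library. Its log2 fold change was 0.040 (edgeR adjusted p 0.931, SE 0.19). Hsc70-4, the constitutive Hsp70 of the cytosol, had 655360 ± 39235 and 668797 ± 31837 normalised counts (SD, n = 3), and STUB1, a ubiquitin ligase, and ref(2)P, an autophagy receptor, stood at 0.087 (adjusted p 0.473) and -0.030 (adjusted p 0.854, edgeR).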
